A study of Mus musculus with 28 samples.

Results

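The Schlafen gene family was described in bone marrow endothelial cells (ECs), mesenchymal stromal cells (MSCs) and mononuclear cells (MNCs) of mice. Its members were the 7 genes of the expression table named Slfn1, Slfn2, Slfn3, Slfn4, Slfn5, Slfn8 and Slfn9, out of 25251 genes in all. They were picked by symbol, but the family was chosen with levels and genotype differences in these same libraries already known. All levels and differences below are therefore descriptions, and their p-values, which come from fits of the whole table, are not independent evidence. The mice were on a C57BL/6 background, aged 8 to 10 wk, and were either wild type (Flt3+/+) or homozygous for a Flt3-ITD knock-in allele (Flt3 ITD/ITD), which places an internal tandem duplication in the receptor tyrosine kinase gene Flt3 at its own locus and is therefore not limited to a cell type. ECs were sorted as CD45-Ter119-CD31+ and MSCs as CD45-Ter119-CD31-CD166-Sca1+ bone lining cells, and MNCs were total marrow mononuclear cells. There were 5 libraries per genotype for ECs and MSCs, made from 100 cells each, and 4 per genotype for MNCs, made from 200 cells each, 28 libraries in all. The study calls the libraries of a group biological replicates, and a figure legend gives every plotted point as a population of an individual mouse. The labels do not say which mouse gave which library. ECs, MSCs and MNCs of the same mice may therefore be among them, and p-values measure the spread between these libraries.

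Schlafen proteins are found in mammals in lineage-specific sets, and many of their genes are induced by interferons. In mice the short members Slfn1 and Slfn2 were first described in thymocytes, where Slfn1 slows growth and Slfn2 holds T cells and monocytes in quiescence. Slfn2 binds tRNAs and protects them from cleavage. Slfn3 and Slfn4 are of intermediate length, and Slfn4 is best known from myeloid cells. Slfn5, Slfn8 and Slfn9 are long members that carry a helicase-like domain at their carboxyl end.

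The 7 members lay side by side on chromosome 11 within 263806 bases, from 82951349 to 83215154 (GRCm38, GENCODE M21), with 5 on the plus strand and 2 on the minus strand. The order was Slfn5, Slfn9, Slfn8, Slfn2, Slfn1, Slfn4 and Slfn3. The pseudogene Slfn10-ps lay between Slfn8 and Slfn2, and Slfn14 lay beyond Slfn3.

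The 200 bases before the start site of each member (RefSeq, GRCm38.p6) are shown because short sequence words divided the family into the same sets as its arrangement along the chromosome. Of the 7 members, Slfn1, Slfn2, Slfn3 and Slfn4 held the 9-base word ACTTCCTGG within 74 bases of the start site. It contains TTCC, the reverse complement of the GGAA core that ETS family factors recognise. The word was chosen after the sequences had been seen, and 0.843% of 32851 promoters of 300 bases held it on either strand. The word is in capitals and each sequence is given 5′ to 3′ on the gene's own strand. Slfn1 is at chr11:83116620-83116819 (plus strand), Slfn2 at chr11:83064912-83065111 (plus), Slfn3 at chr11:83191130-83191329 (plus) and Slfn4 at chr11:83174986-83175185 (plus).
Slfn1: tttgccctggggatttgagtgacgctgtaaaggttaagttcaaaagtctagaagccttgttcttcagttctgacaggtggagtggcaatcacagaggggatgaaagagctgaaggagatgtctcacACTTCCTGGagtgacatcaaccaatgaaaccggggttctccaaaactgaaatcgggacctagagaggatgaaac
Slfn2: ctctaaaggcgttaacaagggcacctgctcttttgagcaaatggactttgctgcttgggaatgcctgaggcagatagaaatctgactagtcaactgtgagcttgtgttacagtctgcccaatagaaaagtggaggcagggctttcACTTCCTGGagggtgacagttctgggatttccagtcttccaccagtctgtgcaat
Slfn3: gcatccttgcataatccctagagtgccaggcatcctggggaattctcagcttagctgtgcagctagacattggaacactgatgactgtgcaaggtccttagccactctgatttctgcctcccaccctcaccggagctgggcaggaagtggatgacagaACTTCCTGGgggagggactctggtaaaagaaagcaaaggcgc
Slfn4: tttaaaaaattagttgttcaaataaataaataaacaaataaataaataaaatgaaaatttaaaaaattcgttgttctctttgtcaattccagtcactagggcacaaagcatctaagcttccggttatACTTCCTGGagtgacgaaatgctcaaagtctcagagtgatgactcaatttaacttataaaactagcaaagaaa

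The other members, Slfn5, Slfn8 and Slfn9, held the core of the interferon-stimulated response element, searched as GAAANNGAA on both strands, which 8.56% of the 32851 promoters held. Slfn5 held it at 2 places, and the Slfn8 and Slfn9 copies lay 47 and 44 bases before the start site in closely similar surroundings. The interferon gamma activated site, searched as TTCNNNGAA, was in none of the 7 members and in 8.30% of all promoters. The response element core is in capitals below. Slfn5 is at chr11:82951902-82952101 (plus strand), Slfn8 at chr11:83020811-83021010 (minus) and Slfn9 at chr11:82991831-82992030 (minus). No member held both words in the 300 bases, and a match of letters is not a binding site.
Slfn5: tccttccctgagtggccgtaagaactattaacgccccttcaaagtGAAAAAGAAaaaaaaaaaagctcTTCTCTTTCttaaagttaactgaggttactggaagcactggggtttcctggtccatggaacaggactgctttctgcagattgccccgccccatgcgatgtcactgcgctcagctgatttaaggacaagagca
Slfn8: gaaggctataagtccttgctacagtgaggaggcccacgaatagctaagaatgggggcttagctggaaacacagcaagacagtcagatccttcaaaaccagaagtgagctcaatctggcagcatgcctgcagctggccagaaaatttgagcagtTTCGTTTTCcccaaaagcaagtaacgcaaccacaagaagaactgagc
Slfn9: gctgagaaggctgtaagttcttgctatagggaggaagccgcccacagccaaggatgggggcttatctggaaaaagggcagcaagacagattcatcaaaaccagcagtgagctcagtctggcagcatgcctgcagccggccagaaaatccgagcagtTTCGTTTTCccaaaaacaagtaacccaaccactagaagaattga

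Related members share sequence, which touches how their reads were counted. The authors discarded reads that mapped to more than 1 place. Of all 51-base windows, the read length, of GENCODE M21 transcripts, 15.4% of those of Slfn3, 14.1% of Slfn8, 11.5% of Slfn9, 10.9% of Slfn4, 10.9% of Slfn5, 4.15% of Slfn2 and 0.551% of Slfn1 also occurred exactly in another gene. With up to 2 mismatches allowed, 28.6% of Slfn3 windows matched Slfn4 and 37.0% of Slfn8 windows matched Slfn9. Levels of Slfn3 against Slfn4 and of Slfn8 against Slfn9 and Slfn10-ps are uncertain to that extent. In Slfn5 7.35% of windows overlapped the antisense gene Slfn5os, and the library kit did not mark strand.

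Total counts per library ranged from 6377013 to 33880743. Values are given as RPKM, the authors' read count scaled by transcript length and library size, which allows levels of different genes to be compared, and 3 counts were taken as the smallest number the depth can show, for counting error only. Endothelial markers summed to 1502.92 RPKM or more in every EC library and to at most 28.46 in the others, and 10 leukocyte markers summed to at least 4487.69 in every MNC library. The mesenchymal list did not separate MSCs, since it summed to 2607.91 to 4298.31 in MSCs and 3680.54 to 6323.94 in ECs. Flt3 ITD/ITD EC replicate 2 held 778 counts of Ptprc (CD45), against at most 3 in the other ECs, and Flt3 ITD/ITD MSC replicate 5 held 32. Among MNCs, replicates 1 and 2 differed from 3 and 4 of both genotypes in the immediate early gene Fos, at 141.57 RPKM or more in the former and 15.58 or less in the latter. A level of the Flt3 transcript does not distinguish the alleles. It ranged from 2.53 to 6.96 RPKM in Flt3+/+ MNCs and from 6.91 to 14.81 in Flt3 ITD/ITD MNCs. In ECs and MSCs most libraries of both genotypes held 0 or 1 count of Flt3. The exceptions were Flt3 ITD/ITD EC replicates 3 and 5 (148 and 63 counts) and Flt3 ITD/ITD MSC replicates 2 and 5 (22 and 8 counts).

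The 3 populations used different members. ECs and MSCs carried mainly Slfn5, whereas MNCs carried mainly Slfn2, Slfn1 and Slfn4. As a mean share of the summed member RPKM of a library, Slfn5 made up 60.9% in ECs, 74.9% in MSCs and 3.65% in MNCs. Slfn2 made up 27.4%, 5.32% and 50.5%, respectively. Slfn1 made up 25.1% and Slfn4 15.6% in MNCs. The summed level was 91.26 to 189.11 RPKM in ECs, 12.44 to 39.24 in MSCs and 403.41 to 781.98 in MNCs, so the populations did not overlap in total Schlafen transcript. In bulk libraries a smaller share of expressing cells and less transcript per cell cannot be told apart.

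**Figure D1:**
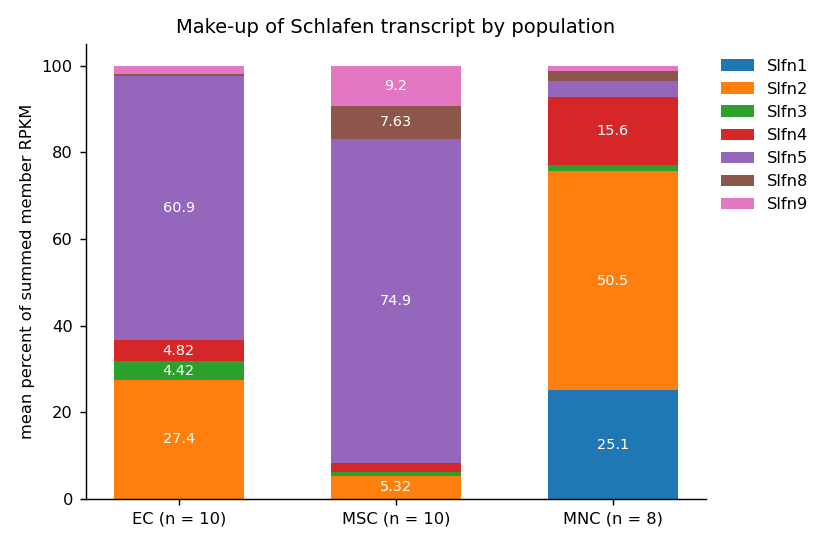
Each bar stacks the mean percent of summed member RPKM taken by each of the 7 genes in ECs (n = 10), MSCs (n = 10) and MNCs (n = 8). Slfn5 fills most of the EC and MSC bars (60.9% and 74.9%), and Slfn2, Slfn1 and Slfn4 fill most of the MNC bar.

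Slfn1, the thymocyte growth regulator, was found in MNCs. Its RPKM in Flt3+/+ MNCs were 185.15, 116.52, 201.69 and 192.3, and in Flt3 ITD/ITD MNCs 142.1, 204.84, 82.56 and 79.7. No EC library held more than 4 counts of Slfn1 (0.16 RPKM) and no MSC library more than 1 count, whereas every MNC library held at least 1974. Flt3 ITD/ITD EC replicate 2, the library with CD45 transcript, was at 0 RPKM.

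Slfn2, which guards quiescence and binds tRNAs, was high in MNCs, intermediate in ECs and near 0 in most MSC libraries. In Flt3+/+ ECs it stood at 49.84, 17.35, 40.88, 48.41 and 20.9 RPKM, and in Flt3 ITD/ITD ECs at 63.08, 26.04, 60.54, 46.42 and 53.72. The MNC values were 302.65, 190.47, 305.39 and 329.37 in Flt3+/+ and 323.28, 396.47, 240 and 252.19 in Flt3 ITD/ITD libraries. Every MNC library was above every EC library, and every EC library was above every MSC library. MSC libraries held 0, 0.04, 0, 4.92 and 1.34 RPKM (Flt3+/+) and 0.02, 0, 0.04, 0.21 and 9.34 (Flt3 ITD/ITD), so that 3 libraries made up nearly all of the signal there.

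Slfn4, the myeloid member, followed the same order with a wide spread in ECs. Its RPKM were 176.6, 77.39, 143.48 and 110.3 in Flt3+/+ MNCs and 99.29, 117.24, 22.43 and 31.68 in Flt3 ITD/ITD MNCs. In ECs they were 11.44, 0.42, 11.73, 19.3 and 0.67 (Flt3+/+) and 10.04, 1.15, 13.39, 2.2 and 9.17 (Flt3 ITD/ITD). ECs of both genotypes thus held libraries near 1 and libraries near 10, and all lay under the MNC values. Flt3 ITD/ITD EC replicate 2, where neutrophil markers summed to 29491.75 RPKM, was among the low ones at 1.15. Flt3+/+ EC replicate 1, with the next highest neutrophil sum of the ECs (1295.49 RPKM), was among the high ones at 11.44. The part of leukocyte transcripts in the EC values was not tested. In MSCs Slfn4 was 0.64 RPKM or less except in Flt3 ITD/ITD replicate 5, at 6.13.

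Slfn3 was found at like levels in MNCs and in Flt3 ITD/ITD ECs. Its RPKM were 10.62, 4.61, 14.76 and 11.38 in Flt3+/+ MNCs and 10.37, 9.95, 5.05 and 7.89 in Flt3 ITD/ITD MNCs. The EC values are given with the genotypes below. In MSCs, 8 of 10 libraries held at most 1 count, and Flt3+/+ replicate 5 stood highest at 1.13 RPKM (72 counts).

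Slfn5, the long member at the edge of the cluster, was the most abundant in ECs and varied least. In Flt3+/+ ECs it stood at 99.98, 68.08, 100.84, 80.74 and 84.18 RPKM, and in Flt3 ITD/ITD ECs at 93.83, 67.13, 79.41, 107.6 and 108.9. MSC values ran from 9.52 to 15.68 (median 13.92) and MNC values from 13.72 to 24.07 (median 20.05). All EC libraries lay above all others, while MSCs and MNCs overlapped. The coefficient of variation of Slfn5 came to 0.173 for ECs, 0.169 for MSCs and 0.176 for MNCs, where the other members had 0.217 or more in every population. The antisense gene Slfn5os was at 4.01 to 17.59 RPKM in ECs and at most 0.54 elsewhere.

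Slfn8 and Slfn9, the neighbouring long members, were highest in MNCs and low and uneven in ECs and MSCs. In ECs Slfn8 ran from 0.19 to 3.52 RPKM (median 0.5), in MSCs from 0.1 to 6.24 (median 0.91) and in MNCs from 6.4 to 23.5 (median 11.5). Slfn9 ran from 0.45 to 15.89 in ECs (median 1.67), from 0.45 to 9.31 in MSCs (median 0.78) and from 2.09 to 9.92 in MNCs (median 6.7). For Slfn8 every MNC library was above every EC and MSC library, and for Slfn9 the populations overlapped. Of the other rows with a Schlafen name, Slfn10-ps reached 7.33 RPKM, Slfn14 was found only in 6 MNC libraries above 3 counts (up to 15.2 RPKM) and Slfnl1 held at most 3 counts in any library.

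**Figure D2:**
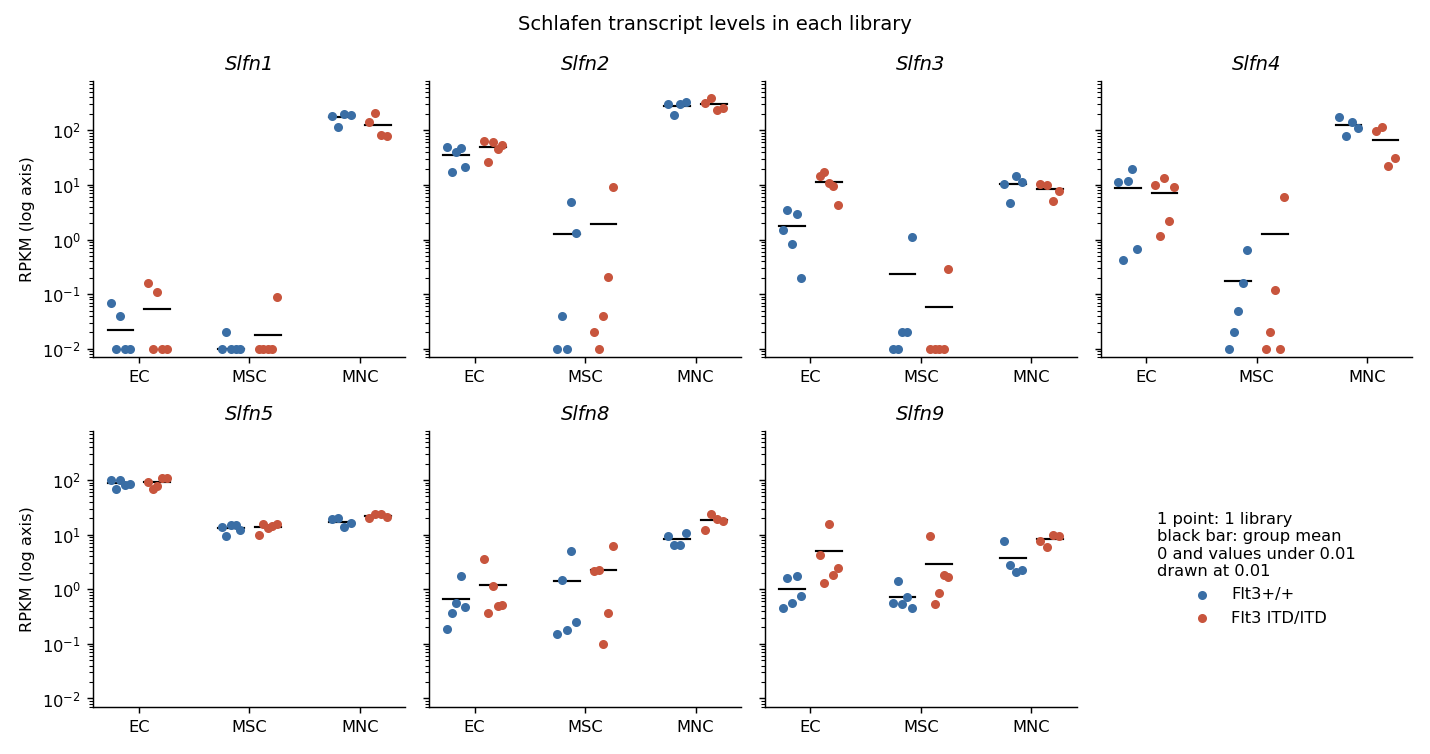
Each panel plots 1 member's RPKM on a log axis for every library, by population, with Flt3+/+ in blue, Flt3 ITD/ITD in red and a black bar at the group mean; 0 is drawn at 0.01. Slfn1 is at the floor in ECs and MSCs, Slfn5 is highest in ECs, and Slfn3 in ECs separates the genotypes.

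Populations were compared with edgeR's quasi-likelihood test over all 28 libraries, and a gene was called at a Benjamini-Hochberg adjusted p-value below 0.1 with mean RPKM differing by at least 1 on the log2 scale. Against MSCs, ECs had higher Slfn2, Slfn3, Slfn4 and Slfn5. These were 4 of 7 members, where 16.3% of 16897 genes were called higher in ECs. The log2 fold changes were 4.60 for Slfn2 (SE 0.997, adjusted p = 0.000813), 5.23 for Slfn3 (SE 1.04, adjusted p = 0.000332), 3.80 for Slfn4 (SE 1.03, adjusted p = 0.00545) and 2.46 for Slfn5 (SE 0.127, adjusted p = 1.03e-13). Only for Slfn2 and Slfn5 did the libraries not overlap (4.75% of genes). Slfn8 (−1.24, SE 0.662) and Slfn9 (0.34, SE 0.487) did not pass.

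The size of the EC to MSC differences in Slfn2, Slfn3 and Slfn4 rested on a few MSC libraries. Without Flt3 ITD/ITD MSC replicate 5 the log2 fold change of Slfn2 was 6.89 and that of Slfn4 6.28, and without Flt3+/+ MSC replicate 5 that of Slfn3 was 7.33. Without Flt3 ITD/ITD MSC replicate 5 and Flt3 ITD/ITD EC replicate 2, both with leukocyte transcripts, the values were 6.97, 7.13 and 6.41 for Slfn2, Slfn3 and Slfn4, and Slfn1 was called too (2.27, adjusted p = 0.0504), as it was without Flt3 ITD/ITD MSC replicate 5 alone (2.09), with at most 4 counts in any of these libraries. In Flt3+/+ libraries alone Slfn3 was no longer called (2.72, adjusted p = 0.190). Slfn8 was called lower in ECs when Flt3+/+ EC replicate 4 (−1.56), Flt3 ITD/ITD EC replicate 1 (−1.64) or Flt3 ITD/ITD MSC replicate 3 (−1.40) was left out. Leukocyte markers in Flt3 ITD/ITD MSC replicate 5 summed to 198.17 RPKM and in Flt3+/+ MSC replicate 5 to 70.82, but to 3.52 in Flt3+/+ MSC replicate 4, which held 4.92 RPKM of Slfn2. Their part in the MSC values was not tested.

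Against MNCs, ECs had higher Slfn5 and lower Slfn1, Slfn2, Slfn4 and Slfn8. Of all genes, 23.1% were called higher and 22% lower in ECs. Slfn5 was higher by 2.04 on the log2 scale (SE 0.135, adjusted p = 7.08e-12). The log2 fold changes were −2.96 for Slfn2 (SE 0.943, adjusted p = 0.0123), −3.72 for Slfn4 (SE 1.03, adjusted p = 0.00459) and −3.98 for Slfn8 (SE 0.747, adjusted p = 0.000106). Slfn1 was lower with an adjusted p of 2.37e-13, and no fold is given because ECs were near the floor. The libraries did not overlap for Slfn5 (9.12% of genes in that direction) or for the 4 lower members (9.39%). Slfn3 did not pass (−1.21, SE 0.898, adjusted p = 0.284). Slfn9 had an adjusted p of 0.0402 but a log2 ratio of mean RPKM of −0.95, short of the fold rule, and it was called in Flt3+/+ libraries alone (−1.81) and without Flt3 ITD/ITD EC replicate 3 (−1.79), Flt3+/+ MNC replicate 3 (−1.39), Flt3+/+ MNC replicate 4 (−1.38) or Flt3 ITD/ITD MNC replicate 2 (−1.36).

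Against MNCs, MSCs had lower levels of 6 of 7 members, where 22% of genes were called lower. The log2 fold changes were −7.55 for Slfn2 (SE 1.15), −6.44 for Slfn3 (SE 1.11), −7.52 for Slfn4 (SE 1.22), −2.74 for Slfn8 (SE 0.712) and −1.65 for Slfn9 (SE 0.518), with adjusted p-values of 0.0109 or less. Slfn1, at most 1 count in any MSC library, was also lower (adjusted p = 1.01e-13). For Slfn1, Slfn2, Slfn3, Slfn4 and Slfn8 the libraries did not overlap (12.2% of genes). Slfn5 differed by −0.42 (SE 0.127, adjusted p = 0.00876), under the fold rule. The same MSC libraries set the sizes, since Slfn2 and Slfn4 came to −9.85 and −9.99 without Flt3 ITD/ITD MSC replicate 5, Slfn3 to −8.54 without Flt3+/+ MSC replicate 5 and Slfn8 to −3.51 without Flt3+/+ MSC replicate 4.

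**Figure D3:**
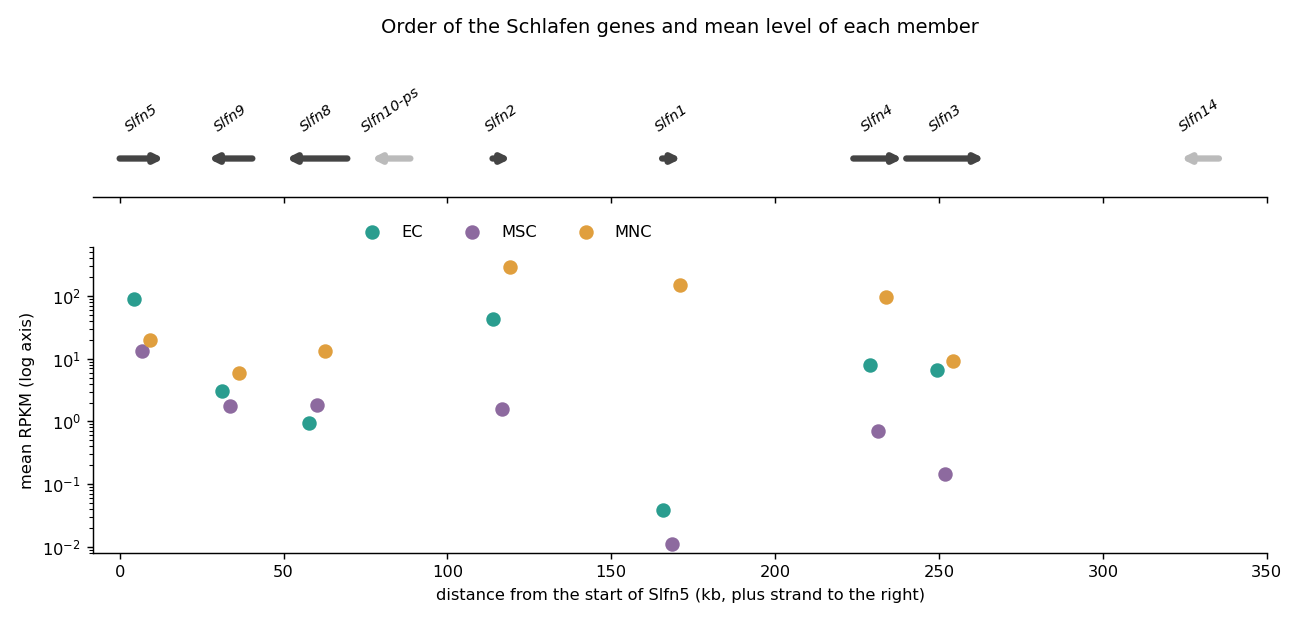
The upper panel places the Schlafen genes by distance in kb from the start of Slfn5, with arrows in the direction of transcription and Slfn10-ps and Slfn14 in grey; the lower panel gives each member's mean RPKM on a log axis in ECs (n = 10), MSCs (n = 10) and MNCs (n = 8). Slfn5 is the only member with its highest mean in ECs.

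Genotypes were compared within each population by the same test, and 0 members were called in any population. Of all genes, edgeR called 0.0081% in ECs (1 of 12351), 0.0295% in MSCs (4 of 13574) and 0.0144% in MNCs (2 of 13926), so the test called hardly any gene. The members tested were 6 in ECs, 3 in MSCs (Slfn5, Slfn8 and Slfn9) and 7 in MNCs, the others having too few counts. At an unadjusted p-value below 0.05, with every member higher in Flt3 ITD/ITD libraries, there were 2 in ECs (Slfn3 and Slfn9), 1 in MSCs (Slfn9) and 2 in MNCs (Slfn8 and Slfn9). The shares of all genes tested that were higher at that level were 2.5%, 2.28% and 5.39%, respectively. DESeq2 called Slfn3 in ECs and no member in MSCs or MNCs, and it called 2.58%, 1.29% and 2.14% of all genes.

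The member with the greatest difference was Slfn3 in ECs. Its RPKM were 1.52, 3.42, 0.83, 2.95 and 0.2 in Flt3+/+ ECs (40, 150, 23, 75 and 13 counts) and 14.28, 17.39, 10.67, 9.71 and 4.27 in Flt3 ITD/ITD ECs (175, 1032, 601, 223 and 213 counts). The lowest Flt3 ITD/ITD library lay above the highest Flt3+/+ library, and 0.599% of genes in ECs were higher without overlap. The means were 1.78 ± 1.37 and 11.3 ± 4.96 RPKM (SD, n = 5 each). The log2 fold change was 2.70 (SE 0.796), with an edgeR p of 0.00618 that came to 0.868 after adjustment over all genes, whereas the adjusted p by DESeq2 was 0.0120. The highest library, Flt3 ITD/ITD EC replicate 2, was also the one with CD45 transcript, and the log2 fold change was 2.48 without it.

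No genotype difference in Slfn3 was called in the other populations. In MNCs the Flt3 ITD/ITD and Flt3+/+ libraries overlapped (−0.58, SE 0.428, adjusted p = 0.665), and in MSCs counts were too few to test. The difference between the EC and MSC genotype effects was 5.03 on the log2 scale (SE 1.88, adjusted p = 0.277 by edgeR and 0.0689 by DESeq2). That between ECs and MNCs was 3.27 (SE 1.85, edgeR adjusted p = 0.705), and limma on log2(RPKM + 1) gave 2.41 (adjusted p = 0.0973). By edgeR 0 members passed any interaction test, and at an unadjusted p below 0.05 there was 1, Slfn3 for ECs against MSCs, where 10.6% of all genes were at that level. Of all genes 0.379% passed after adjustment for ECs against MSCs, 0.0118% for ECs against MNCs and 0.00592% for MSCs against MNCs, whereas DESeq2 called 5.55% for ECs against MSCs. The EC to MSC value fell to 0.84 without Flt3+/+ MSC replicate 5 and rose to 9.09 without Flt3 ITD/ITD MSC replicate 5. The near neighbour Slfn4, which shares most sequence with Slfn3, differed by −0.19 between genotypes in ECs (SE 0.989, edgeR adjusted p = 0.9998).

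Slfn9 had higher means in Flt3 ITD/ITD libraries in each population. In ECs its RPKM were 0.45, 1.62, 0.55, 1.72 and 0.75 (Flt3+/+) and 4.2, 1.3, 15.89, 1.82 and 2.4 (Flt3 ITD/ITD), in MSCs 0.56, 1.39, 0.54, 0.71 and 0.45 and 9.31, 0.53, 0.85, 1.82 and 1.69, and in MNCs 7.62, 2.82, 2.09 and 2.26 and 7.49, 5.91, 9.92 and 9.45. The groups overlapped in each population. The log2 fold changes were 2.15 in ECs (SE 0.810), 1.90 in MSCs (SE 0.816) and 0.98 in MNCs (SE 0.395), with edgeR p-values of 0.0231, 0.0400 and 0.0335 and adjusted p-values of 0.927, 0.999 and 0.446. The values were recomputed without the library that lay farthest from its group in each population. Without Flt3 ITD/ITD EC replicate 3 the EC value was 1.10 (SE 0.638), without Flt3 ITD/ITD MSC replicate 1 the MSC value was 0.80 (SE 0.666), and without Flt3+/+ MNC replicate 1 the MNC value was 1.54 (SE 0.261, edgeR adjusted p = 0.146). The pseudogene Slfn10-ps, which shares sequence with Slfn9, was also highest of the MSCs in Flt3 ITD/ITD MSC replicate 1 (402 counts, 4.03 RPKM). In ECs it held 284 counts in Flt3 ITD/ITD replicate 3 but was highest in Flt3+/+ replicate 5 (526 counts), where Slfn9 was 0.75 RPKM. Its part in the Slfn9 values was not tested.

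Slfn8 had a higher mean in Flt3 ITD/ITD MNCs. Its RPKM were 9.62, 6.4, 6.59 and 10.87 in Flt3+/+ MNCs and 12.04, 23.5, 19.72 and 18 in Flt3 ITD/ITD MNCs. The groups did not overlap in RPKM, as for 5.72% of the genes tested in that direction and 0.984% in the other. The log2 ratio of mean RPKM was 1.13. The log2 fold change was 0.91 (SE 0.278), with an edgeR p of 0.00911 that came to 0.415 after adjustment over all genes, and the adjusted p by DESeq2 was 0.102. Slfn8 was not called in MNCs by either tool, nor in ECs (0.85, SE 0.794) or MSCs (0.65, SE 1.23). The EC value came to −0.0089 without Flt3 ITD/ITD EC replicate 1, and the MSC value to −0.17 without Flt3 ITD/ITD MSC replicate 5 and 2.18 without Flt3+/+ MSC replicate 4.

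Slfn1 and Slfn4 had lower means in Flt3 ITD/ITD MNCs without passing the test, whereas the mean RPKM of Slfn2 was 303 there and 282 in the Flt3+/+ libraries. The log2 fold change was −1.09 for Slfn4 (SE 0.536, adjusted p = 0.508), −0.68 for Slfn1 (SE 0.371, adjusted p = 0.537) and −0.13 for Slfn2 (SE 0.285, adjusted p = 0.907). For Slfn1 and Slfn4 the 2 lowest MNC libraries were Flt3 ITD/ITD replicates 3 and 4. Neutrophil markers (8 genes) summed to 42580.64 and 57984.17 RPKM in those libraries, against 155986.2 or more in the other 6, so the low Slfn1 and Slfn4 values and the low neutrophil sums fell in the same libraries. Their part in the result was not tested.

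Within replicates 3 and 4 alone, edgeR called 940 of 13970 genes (6.73%), and among them Slfn4 (−2.61, adjusted p = 0.0152), Slfn1 (−1.69, adjusted p = 0.0200), Slfn3 (−1.45, adjusted p = 0.0965) and Slfn9 (1.80, adjusted p = 0.0529). Within replicates 1 and 2 alone it called 0 of 14252 genes, with 871 at an unadjusted p below 0.05, and the values were −0.22 for Slfn4, 0.20 for Slfn1, 0.42 for Slfn3 and 0.31 for Slfn9. Slfn2 was −0.78 in replicates 3 and 4 (edgeR adjusted p = 0.0811, short of the fold rule) and 0.55 in replicates 1 and 2. For Slfn8 the subsets gave 0.70 (SE 0.302) and 1.16 (SE 0.397), respectively. This subdivision was chosen after the values were seen. Its calls and p-values are therefore descriptions of these libraries and lend no support to a genotype difference.

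**Figure D4:**
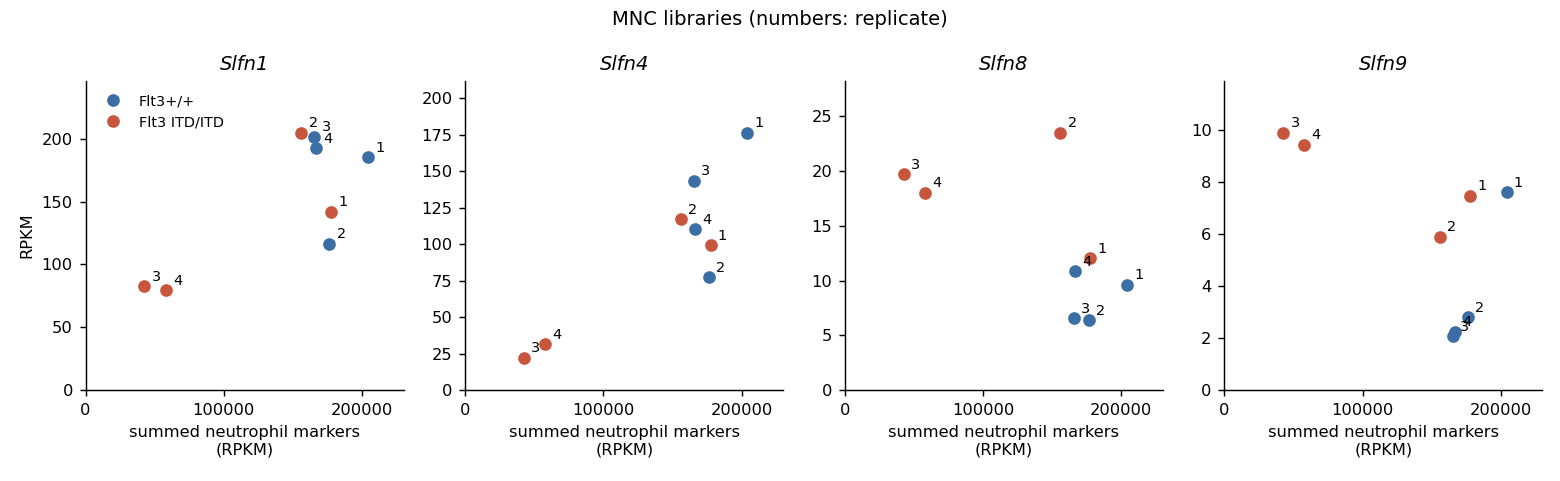
Each point is 1 MNC library, numbered by replicate and coloured by genotype, with the summed RPKM of 8 neutrophil markers on the x axis and the RPKM of Slfn1, Slfn4, Slfn8 or Slfn9 on the y axis. Flt3 ITD/ITD replicates 3 and 4 are lowest in neutrophil markers, Slfn1 and Slfn4, and Slfn8 is higher in all 4 Flt3 ITD/ITD libraries than in any Flt3+/+ library.

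With all libraries, no genotype difference was called for Slfn2 or Slfn5. For Slfn2 in ECs the log2 fold change was 0.51 (95% interval −0.23 to 1.25). For Slfn5 it was 0.05 in ECs (95% interval −0.31 to 0.40), 0.15 in MSCs (−0.27 to 0.56) and 0.15 in MNCs (−0.14 to 0.43). The intervals for Slfn5 lie within 0.56 of no change, which is the narrowest range of the family.

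**Figure D5:**
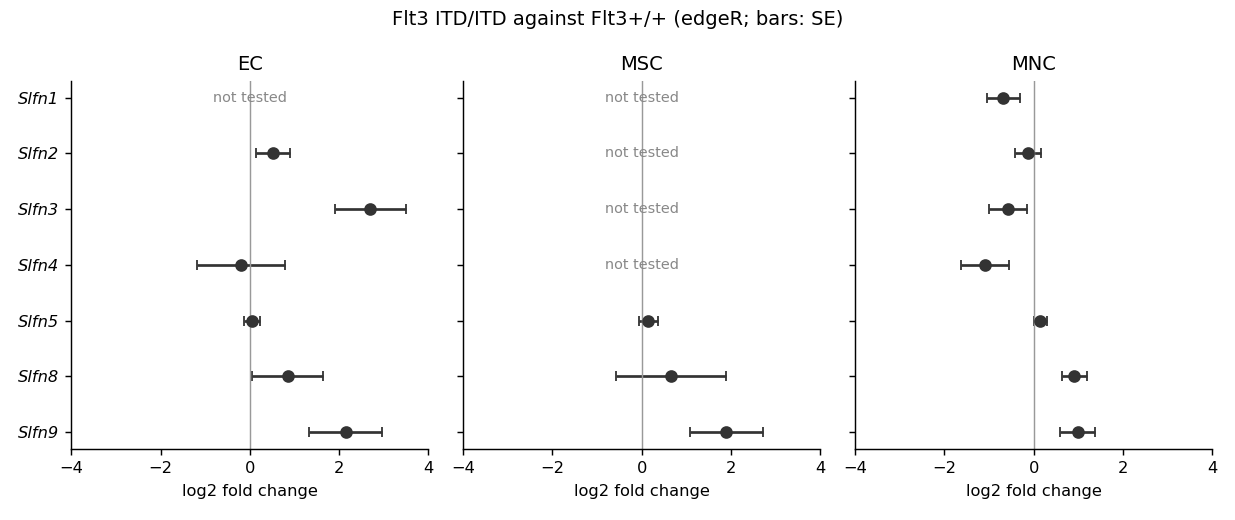
Log2 fold change of each member in Flt3 ITD/ITD against Flt3+/+ libraries of ECs, MSCs and MNCs, with the SE as a bar and members with too few counts marked as not tested. Slfn3 in ECs (2.70) and Slfn9 in ECs and MSCs (2.15 and 1.90) lie farthest from 0, and Slfn5 stays near 0 in each panel.

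Other genes of the interferon pathway were read from lists written with earlier results of these data known. Of 48 interferon-stimulated genes, 33 were called higher and 0 lower in ECs than in MSCs, where 16.3% of all genes were called higher and 16.6% lower. In MSCs 33 were called lower and 3 higher than in MNCs, where 22% of all genes were called lower and 22.2% higher. Against MNCs, 17 were called higher and 7 lower in ECs (23.1% and 22% of all genes), with Iigp1, an immunity-related GTPase, at 7.81 (SE 1.02) and Oas3, a synthetase of the antiviral 2′-5′-oligoadenylate system, at −5.37 (SE 0.373). Between genotypes edgeR called 0 of the 48 in any population. At an unadjusted p below 0.05, 5 were higher in Flt3 ITD/ITD ECs (2.5% of all genes tested) and 4 in MSCs (2.28%). In MNCs 7 were higher and 2 lower (5.39% and 5%). DESeq2 called 2 higher in ECs (1.27% of all genes), 1 lower in MSCs (0.789%), and 4 higher and 1 lower in MNCs (1.35% and 0.792%). Their median log2 fold change was 0.45 over 47 tested in ECs, 0.71 over 44 in MSCs and 0.12 over 48 in MNCs, and 36, 36 and 30 of them were above 0. The medians of all genes tested were −0.01, 0.03 and −0.01. The lowest p-values in ECs were those of Ifit2 (2.42, SE 0.369, edgeR adjusted p = 0.190), Eif2ak2 (1.63, SE 0.436, adjusted p = 0.740) and Ifit1 (1.68, SE 0.609, adjusted p = 0.927). In MNCs they were those of Gbp3 (1.52, SE 0.378), Mx2 (1.76, SE 0.442) and Gbp7 (0.94, SE 0.280), with edgeR adjusted p-values of 0.397, 0.397 and 0.415.

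Upstream of them, Ifng was the only ligand of 6 in the table with enough counts to test, and it was lower in ECs and MSCs than in MNCs (adjusted p = 0.00771 and 0.00670) and not called between genotypes in MNCs (−2.43, SE 1.72). Of 22 receptors and signal transducers, 6 were called higher and 1 lower in ECs than in MSCs (16.3% and 16.6% of all genes), and edgeR called 0 between genotypes. At an unadjusted p below 0.05, 2 were higher and 2 lower in ECs (2.5% and 2.49% of all genes tested). In MSCs 1 was higher (2.28%), and in MNCs 2 were higher and 1 lower (5.39% and 5%). DESeq2 called 1, higher in MSCs (0.502% of all genes). The lowest p in ECs were those of Ifnar1, a chain of the type I interferon receptor (−0.90, SE 0.254), Irf9, the DNA-binding part of the transcription factor complex that reads the response element (1.14, SE 0.366), and Usp18, a brake on the receptor (1.08, SE 0.377), with edgeR adjusted p-values of 0.758, 0.903 and 0.927. The effector Eif2ak2, on both the interferon-stimulated list and the translation control list below, is the protein kinase that stops translation on double-stranded RNA. It was the one listed gene that edgeR called in an interaction (2.18 for ECs minus MSCs, SE 0.502, edgeR adjusted p = 0.0798). For ECs minus MSCs DESeq2 called 2 interferon-stimulated genes higher, and from the lists below 1 translation control gene higher and 1 cell cycle gene lower (5.55% of all genes). For ECs minus MNCs it called 1 receptor or signal transducer lower (2.99% of all genes).

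Lists for processes the family is known to act on were read in the same way, and edgeR called 0 of their genes between genotypes. DESeq2 called 1 gene of translation control higher in ECs, where it called 1.27% of all genes higher. It called 1 cell cycle gene lower in ECs and 1 lower in MNCs (1.3% and 0.792% of all genes). Of 12 genes of tRNA cleavage and translation control in the table, 1 was called higher and 4 lower in ECs than in MSCs (16.3% and 16.6% of all genes), among the latter Ang, the nuclease angiogenin (−2.05, SE 0.587). Of 19 cell cycle genes, 16 were called lower and 0 higher in ECs than in MNCs, and 18 lower and 1 higher in MSCs. Of all genes, 22% were called lower in both, and 23.1% and 22.2% higher. Aurkb, a mitotic kinase, was the lowest of those called (−12.72, SE 0.505, and −14.38, SE 0.547). The fit gave folds of like size for Slfn1, which was near the floor in ECs and MSCs, so the size of these folds is not read. Of 15 quiescence factors, 8 were called higher and 0 lower in ECs than in MNCs, and 7 higher and 1 lower in MSCs. The same shares of all genes apply. Cdkn1c, a cell cycle inhibitor, led those called higher (7.95, SE 0.600, and 6.52, SE 0.565). At an unadjusted p below 0.05, 11 of the 19 cell cycle genes were lower in Flt3 ITD/ITD MNCs, as were 696 of the 13926 genes tested. In ECs and MSCs 1 each was lower, where 2.49% and 1.95% of all genes were. Of the 15 quiescence factors 0 passed in any population. Of the 12 translation genes 1 passed in each, where 4.99% (ECs), 4.24% (MSCs) and 10.4% (MNCs) of all genes did. The translation gene that passed in ECs was Eif2ak2, which is also on the interferon-stimulated list. In MNCs Foxm1, a mitotic transcription factor, stood at −1.17 (SE 0.246, edgeR adjusted p = 0.397).

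The genes most like each member over the 28 libraries, by Pearson r of log2(RPKM + 1) among 13727 genes whose mean RPKM reached 1, followed the populations. Slfn5 was closest to Egfl7 (0.978), AW112010 (0.976) and Cdh5 (0.973), and Slfn1 to B430306N03Rik (0.999), Rgs18 (0.996) and Itgb2l (0.996). Slfn2 was closest to Rin3 (0.954), Gm1966 (0.941) and Cxcr4 (0.938), Slfn4 to AI467606 (0.932), Ccdc125 (0.919) and Lcp1 (0.916), and Slfn3 to M55219 (0.887), Sp100-like-gene (0.885) and Ceacam1 (0.867). Slfn8 was closest to Psat1 (0.914), 5430427O19Rik (0.899) and Bid (0.897), and Slfn9 to Slc25a22 (0.820), Rhox8 (0.776) and Pcyox1l (0.763).

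After the mean of each population was taken off, the correlations were lower. Slfn2 had Adcy4 (0.707), Slfn4 (0.666) and Jag1 (0.656) as its nearest genes, so another member was among the nearest for Slfn2 but for no other member. Flt3 ITD/ITD MSC replicate 5 stood apart in both Slfn2 (9.34 RPKM) and Slfn4 (6.13 RPKM), and its part in their correlation was not tested. Slfn8 and Slfn9, adjoining and alike in sequence, had r = 0.425. Slfn1 was nearest to Oas3 (0.938), B430306N03Rik (0.929) and 9830107B12Rik (0.907). Slfn1 was at most 0.16 RPKM in ECs and 0.09 in MSCs, so its values here rest almost wholly on the MNC libraries. Slfn3 was nearest to Tmem97 (0.734), Hcls1 (0.721) and Gpi1 (0.712), and Sipa1 (0.697) and Mob2 (0.676) were among the genes nearest to Slfn4. Slfn5 was nearest to Arf4 (0.706), Ndufs3 (0.691) and Rab33b (0.688), Slfn8 to S1pr3 (0.729), Znf41-ps (0.679) and Rnf113a1 (0.667), and Slfn9 to B4galnt1 (0.768), Slc25a22 (0.729) and Adamtsl2 (0.685). These values are descriptions over libraries that share populations, genotypes and depth, and no p is given.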

How the data were processed

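RNA was measured in 28 libraries of ECs, MSCs and MNCs, grouped by population and genotype from their labels, and 0 columns of per-sample values were left unused. The authors deposited read counts estimated by RSEM as whole numbers, after alignment to mm10 transcripts with Bowtie and removal of multi-mapping reads. RPKM of the same genes, also deposited by the authors, have 2 decimals. Counts were tested in R 4.3.3 with edgeR 4.0.16 (quasi-likelihood test, TMM, filterByExpr, Benjamini-Hochberg adjustment over all genes tested), per population for genotypes and over all libraries for populations and interactions. RPKM served for levels and for the fold rule. Interactions were called at an adjusted p below 0.1 alone.

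DESeq2 1.42.0, edgeR's exact test, limma 3.58.1 on log2(RPKM + 1) or log2(RPKM + 0.1), size factors, no filter, adjusted p alone, a replicate block, wild-type libraries alone and leaving out each library were tried. Within each population, Flt3+/+ and Flt3 ITD/ITD libraries sharing a replicate number were compared in their deviations from the group mean (correlations of −0.07 to 0.06). Numbers were not used as pairs in the main tests. Libraries of different populations with the same number and genotype were not compared in this way. The tests across populations treat all 28 libraries as independent. The edgeR genotype test within each population was also run on counts simulated from its own fitted model. The population, interaction, DESeq2 and limma tests were not run on simulated counts.

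The members and lists were chosen with earlier results of these data known. Named genes were all members, at most 3 per list and comparison with the largest fold among called genes or else the lowest p, and the 3 genes most correlated with each member. A gene that this rule names is not reported here. Intervals are the estimate ± 1.96 SE, which is narrower than the quasi-likelihood test would give with few libraries. Promoter sequences came from RefSeq (GRCm38.p6), and transcripts and positions from GENCODE M21. The sequence words were searched on both strands.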

Additional observations from a re-analysis of the deposited data

Results flagged for a closer look

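In 15 of 42 groups of 4 or 5 libraries 1 library lay apart from the rest by Dixon's criterion. The criterion marks about 1 in 20 groups when values are normally distributed. It was applied to untransformed RPKM, zeros included, so the count is not read as an excess over chance. Values at the floor were included.

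In MSCs, Flt3 ITD/ITD replicate 5 stood apart in Slfn1 (0.09 RPKM, 1 count), Slfn2 (9.34, next 0.21), Slfn3 (0.29, 6 counts) and Slfn4 (6.13, next 0.12). Flt3+/+ replicate 5 stood apart in Slfn3 (1.13, next 0.02) and Slfn4 (0.64, next 0.16), Flt3+/+ replicate 4 in Slfn2 (4.92, next 1.34) and Slfn8 (5.09, next 1.45), and Flt3+/+ replicate 2 in Slfn1 (0.02, 1 count) and Slfn9 (1.39, next 0.71). Flt3 ITD/ITD replicate 1 stood apart in Slfn9 (9.31, next 1.82).

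In ECs Slfn8 stood apart in Flt3+/+ replicate 4 (1.73 RPKM, next 0.56) and Flt3 ITD/ITD replicate 1 (3.52, next 1.15), and Slfn9 in Flt3 ITD/ITD replicate 3 (15.89, next 4.2). In MNCs Slfn9 stood apart in Flt3+/+ replicate 1 (7.62, next 2.82). Slfn5 had no such library in any group.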

How the results depend on the processing

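The counts of called members between genotypes were 0 in each population under the alternatives tried, except 1 (Slfn3) with DESeq2 in ECs and 4 with MNC replicates 3 and 4 only, a subset chosen after seeing the data. No member was called in an interaction, except 1 (Slfn3) with DESeq2 and 1 (Slfn3) with limma on log2(RPKM + 1). Leaving out each library gave 0 called members in each genotype comparison and interaction, 4 to 5 for ECs against MSCs, 5 to 6 for ECs against MNCs and 6 for MSCs against MNCs. With the replicate block the numbers of called members were 0 in each genotype comparison and interaction and 4, 5 and 6 between populations, and the EC to MSC value of Slfn3 was 8.03 against 5.23; it changed no call. By population, 2 of 5 EC, 4 of 5 MSC and 2 of 4 MNC number pairs correlated best with their own number.

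Direction changed only in values that were not called. Slfn4 in ECs was −0.19 and became 0.48 with the replicate block, 0.11 and 0.36 with limma on log2(RPKM + 1) and log2(RPKM + 0.1), and ranged from −0.54 to 0.28 when 1 library was left out. Leaving out 1 library gave −0.034 to 0.13 for Slfn5 in ECs, −0.0089 to 1.55 for Slfn8 in ECs, −0.17 to 2.18 for Slfn8 in MSCs and −0.17 to 0.91 for Slfn9 in ECs against MSCs. In MNCs Slfn2 was −0.13 and became 0.10 with limma at either pseudocount. With MNC replicates 1 and 2 only, Slfn1, Slfn2 and Slfn3 became 0.20, 0.55 and 0.42. The cause was not tested. Low counts limit what can be read of Slfn1 in ECs and MSCs and of Slfn2 and Slfn3 in MSCs, where most libraries held 3 counts or fewer. The same holds for Slfn4 in MSCs, where 5 of 10 did.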
